A study of Mus musculus with 7 samples.

Results

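The genes described here make, break down and read retinoic acid, and 8 of the 17920 genes in the deposited table were taken by symbol: Rdh10, Aldh1a1, Aldh1a2, Aldh1a3, Cyp26b1, Rara, Rarb and Rarg. All 8 were listed. They were chosen by their FPKM values across genotype and time (fragment counts corrected for transcript length and library size). Their levels and differences are therefore a description and carry no p-value.

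RNA came from the spleen of C57BL/6 mice aged 8 weeks that had received lipopolysaccharide (LPS, the endotoxin of Gram-negative bacteria) into the peritoneum at 20 mg/kg. Every mouse had LPS, so no group gives a level before it. The mice lacked the X-linked gene for GdX (UBL4A, a ubiquitin-like protein of the machinery that inserts tail-anchored membrane proteins), labelled GdX-/- and in the protocol GdX-/Y, or were wild type, and how the allele was made is not given in the sources used here. There were 2 wild-type and 2 GdX-deficient spleens at 90 min, 2 wild-type spleens at 6 h and 1 GdX-deficient spleen at 6 h. The design names 4 wild-type and 3 GdX-deficient mice, so each library is taken as 1 mouse. The source is labelled splenocytes, but the whole spleen was crushed for RNA, so fewer cells of a type and less RNA per cell cannot be told apart.

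Vitamin A circulates as retinol. Rdh10 oxidizes retinol to retinaldehyde, and the retinaldehyde dehydrogenases Aldh1a1, Aldh1a2 and Aldh1a3 turn retinaldehyde into retinoic acid, the committed step. Cyp26b1, a cytochrome P450, hydroxylates retinoic acid and so ends its action. The receptors Rara, Rarb and Rarg bind retinoic acid and, paired with a retinoid X receptor, sit on response elements made of repeated half-sites. Dendritic cells and stromal cells that express Aldh1a2 are a known source of retinoic acid for lymphocytes.

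A rough depth of 18000000 to 20300000 fragments per library was read from the steps of low FPKM values. Ubl4a, the targeted gene, had 5.62 and 7.50 FPKM in wild type at 90 min against 4.03 and 5.69 FPKM without GdX. The 6 h values were 11.88 and 14.01 FPKM against 10.56 FPKM. Ubl4a alone therefore did not separate the genotypes at 90 min. Gm44504, an entry that overlaps Ubl4a, did, with 0.66 to 1.86 FPKM in GdX-deficient and 14.52 to 51.10 FPKM in wild-type libraries. Replicate 2 of the GdX-deficient group at 90 min stood apart in markers of neutrophils, given beside Rarg. Both wild-type 6 h libraries stood apart in markers of resident spleen cells. B cell markers summed to 363 and 400 FPKM there, 1640 FPKM in the GdX-deficient 6 h library and 1068 to 1886 FPKM at 90 min. T cell markers summed to 131 and 115 FPKM against 222 FPKM at 6 h, and to 208 to 275 FPKM at 90 min. Red pulp macrophage markers summed to 289 and 302 FPKM against 562 FPKM at 6 h, and to 597 to 687 FPKM at 90 min. All 5 B cell, 5 T cell and 6 macrophage markers were lower in wild type at 6 h than at 90 min. Their part in the wild-type time differences and the 6 h genotype differences of any gene, Aldh1a1, Rara, Rarg and Rxra included, was not tested.

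The promoter sequences are shown first, since 2 features in them bear on the family: the likeness of Aldh1a1 and Aldh1a7, and the retinoic acid response element of Rarb. RefSeq (GRCm38.p6) listed starts for 6 of the 8 genes, 11 in all. Each sequence is the 250 bases before a start, 5′ to 3′ on the strand of the gene. Capitals in the first pair mark a response element of the DR5 type, a half-site repeated in the same orientation after 5 bases, searched on both strands. Rarb lies on the minus strand at chr14:16575477-16575726. Cyp26a1, the sister enzyme of Cyp26b1, lies on the plus strand at chr19:37697558-37697807.
Rarb: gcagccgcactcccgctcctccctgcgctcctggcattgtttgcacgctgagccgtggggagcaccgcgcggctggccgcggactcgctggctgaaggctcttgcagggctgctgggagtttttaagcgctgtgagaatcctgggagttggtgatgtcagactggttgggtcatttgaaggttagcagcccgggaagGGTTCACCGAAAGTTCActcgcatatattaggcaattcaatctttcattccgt
Cyp26a1: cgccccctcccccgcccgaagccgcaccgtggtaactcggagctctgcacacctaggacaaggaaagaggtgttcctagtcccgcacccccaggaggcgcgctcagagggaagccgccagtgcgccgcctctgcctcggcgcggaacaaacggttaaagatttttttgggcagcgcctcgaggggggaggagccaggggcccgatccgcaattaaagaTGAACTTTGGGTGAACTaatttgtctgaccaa
The element of Rarb ran from 53 to 37 bases before the start. That of Cyp26a1 ran from 32 to 16 bases before it and reads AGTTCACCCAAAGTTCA on the opposite strand. Of 32851 promoters of this length, 29 held a DR5 match (0.0883%). Rarb was the member with one, at 1 of the 11 member starts. A match is a description of letters, not of binding.

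Capitals in the next set mark CCAAT and the octamer ATGCAAAT, searched on both strands and not overlapping each other. These letters were picked after the sequences had been seen. Aldh1a1 is shown at the second of its 2 listed starts, on the plus strand at chr19:20601718-20601967. Aldh1a7, a mouse gene related to Aldh1a1 on the same chromosome, lies on the minus strand at chr19:20727557-20727806. Aldh1a2 lies on the plus strand at chr9:71215539-71215788.
Aldh1a1: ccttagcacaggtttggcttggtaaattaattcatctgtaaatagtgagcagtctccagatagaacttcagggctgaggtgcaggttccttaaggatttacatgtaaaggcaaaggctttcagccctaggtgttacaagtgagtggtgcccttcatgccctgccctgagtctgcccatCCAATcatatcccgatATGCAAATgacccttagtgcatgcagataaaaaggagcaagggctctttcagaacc
Aldh1a7: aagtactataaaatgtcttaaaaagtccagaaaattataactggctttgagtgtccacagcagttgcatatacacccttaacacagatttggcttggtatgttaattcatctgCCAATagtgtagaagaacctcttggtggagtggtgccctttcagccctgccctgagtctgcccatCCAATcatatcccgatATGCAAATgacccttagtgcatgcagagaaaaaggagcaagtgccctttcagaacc
Aldh1a2: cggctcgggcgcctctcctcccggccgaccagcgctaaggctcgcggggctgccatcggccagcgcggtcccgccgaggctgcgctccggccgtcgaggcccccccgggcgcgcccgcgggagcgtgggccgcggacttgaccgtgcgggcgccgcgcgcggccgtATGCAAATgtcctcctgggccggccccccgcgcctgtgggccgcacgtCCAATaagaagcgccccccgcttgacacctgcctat
Aldh1a1 and Aldh1a7 shared a run of 65 identical bases that began 94 bases before either start and held both motifs. Their coding sequences were 91.6% identical over 1503 aligned bases, against 68.2% to 69.9% between Aldh1a1, Aldh1a2 and Aldh1a3. Fragments could thus have been divided between Aldh1a1 and Aldh1a7, and the level of each is uncertain to that extent. CCAAT stood in 33.8% and ATGCAAAT in 1.60% of all promoters. The Aldh1a2 window also held 40 CpG dinucleotides, more than 98.7% of promoters, whereas that of the second Aldh1a1 start held 1. The window of the first Aldh1a1 start, not shown, held 3 CpG dinucleotides and neither CCAAT nor ATGCAAAT.

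Among the 8 genes, Rdh10, Aldh1a1 and Rara had the highest levels, with means over the 7 libraries of 25.6, 20.4 and 16.7 FPKM. Rarg (3.83 FPKM) and Aldh1a2 (3.52 FPKM) followed. Aldh1a3, Cyp26b1 and Rarb lay at 0.347, 0.336 and 0.274 FPKM. Differences are log2(FPKM + 1) differences, and adding 1 shrinks those of low genes. A fit across genes with limma used the 11378 genes with a mean of at least 1 FPKM, which left in 5 members and left out Aldh1a3, Cyp26b1 and Rarb.

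**Figure D1:**
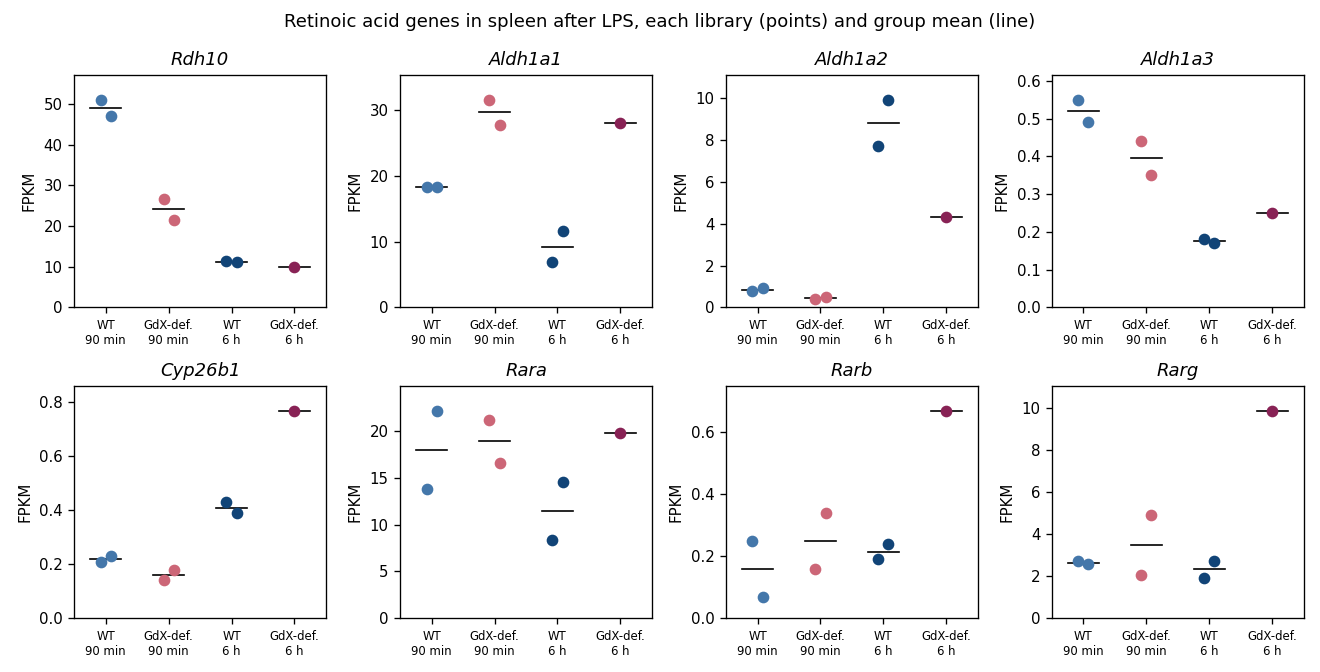
FPKM (vertical axis, from 0, 1 scale per gene) of each of the 8 genes in wild-type (WT) and GdX-deficient (GdX-def.) spleen at 90 min and 6 h after LPS. Points are libraries and lines are group means. Aldh1a2 is highest in wild type at 6 h (7.74 and 9.94 FPKM), Rdh10 in wild type at 90 min (51.10 and 47.06 FPKM), and Rarg in the single GdX-deficient library at 6 h (9.88 FPKM).

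Rdh10 (Entrez gene 98711, chromosome 1, 16105774 to 16133734, plus strand, GRCm38) catalyses the retinol step. It stood at 51.10 and 47.06 FPKM in wild type and 26.79 and 21.46 FPKM in GdX-deficient spleen at 90 min. The 6 h levels were 11.31 and 11.19 FPKM in wild type and 10.02 FPKM in the GdX-deficient library. The order of the groups was wild type at 90 min, GdX-deficient at 90 min, wild type at 6 h and GdX-deficient at 6 h, and no neighbours overlapped. At 90 min the wild-type mean was 2.03 times the GdX-deficient one, a log2 difference of -1.0 (SE 0.26). In wild type the 6 h level was lower by a log2 difference of -2.03 (SE 0.26), and in GdX-deficient spleen by -1.18 from 1 library. The genotypes were close at 6 h, with a log2 difference of -0.15 that became 0.10 when FPKM was rescaled without the haemoglobin genes.

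Markers of smooth muscle and pericytes varied with Rdh10 at 90 min. All 6 markers were lower in both GdX-deficient than in either wild-type library at 90 min, and their summed level was 222 and 121 FPKM in wild type against 50.1 and 37.9 FPKM. In wild type at 6 h the sum was 38.0 and 34.3 FPKM. The GdX-deficient library at 6 h had a sum of 91.1 FPKM with the lowest Rdh10 level. At 90 min 9 of the 10 fibroblast markers lay below wild type in both GdX-deficient libraries. The part of these cells in the Rdh10 difference was not tested.

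Of the retinaldehyde dehydrogenases, Aldh1a2 (Entrez gene 19378, chromosome 9, 71215789 to 71296243, plus strand) was low at 90 min, at 0.79 and 0.91 FPKM in wild type and 0.42 and 0.51 FPKM in GdX-deficient spleen. At 6 h it stood at 7.74 and 9.94 FPKM in wild type and 4.32 FPKM in the GdX-deficient library. No group overlapped another. The wild-type mean was 10.4 times higher at 6 h than at 90 min (log2 difference 2.40, SE 0.26), and the GdX-deficient library stood 9.29 times above its 90 min mean (log2 difference 1.86). Between 19 and 41 fragments were estimated behind each 90 min value, and between 189 and 457 behind each 6 h value. At both times the GdX-deficient level was lower, with wild-type means 1.83 times higher at 90 min (log2 difference -0.34, SE 0.26) and 2.05 times higher at 6 h (-0.88, 1 GdX-deficient library). The latter passed a log2(FPKM + 1) difference of 1 in size under 3 of 6 alternatives.

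Among cell types known to express Aldh1a2, most dendritic cell and fibroblast markers were lower in wild type at 6 h than at 90 min. The mesothelium list, for the cell layer over the spleen capsule, summed to 10.1 and 4.47 FPKM in wild type at 90 min and to 1.98 and 5.36 FPKM at 6 h. Without GdX it was 1.29 and 1.40 FPKM at 90 min, with 6 of its 7 markers below wild type in both libraries, and 4.18 FPKM at 6 h. The dendritic cell list summed to 175 and 199 FPKM in wild type at 90 min and to 227 and 348 FPKM at 6 h, most of it from Ccr7, a chemokine receptor of migrating dendritic cells and T cells. Without GdX the sum was 156 and 93.6 FPKM and then 188 FPKM. Of the 7 dendritic cell markers, 2 were higher and 5 lower in wild type at 6 h than at 90 min, with no overlap. Among them Flt3 was at 7.59 and 7.84 FPKM and then 8.08 and 9.06 FPKM, and Zbtb46 at 7.53 and 7.63 FPKM and then 2.70 and 3.19 FPKM. Of the 10 fibroblast markers 1 was higher and 8 were lower. The part of any of these cell types in the genotype or time differences of Aldh1a2 was not tested.

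Aldh1a1 (Entrez gene 11668, chromosome 19, 20492715 to 20643465, plus strand) showed another order. It stood at 18.36 and 18.33 FPKM in wild type and 31.59 and 27.75 FPKM in GdX-deficient spleen at 90 min. At 6 h it was at 6.86 and 11.66 FPKM in wild type and 28.04 FPKM in the GdX-deficient library. The GdX-deficient groups at 90 min and 6 h overlapped, and both lay above wild type at either time. The GdX-deficient mean was 1.62 times that of wild type at 90 min (log2 difference 0.66, SE 0.30) and 3.03 times at 6 h (1.54, 1 library). From 90 min to 6 h the wild-type level differed by -0.96 (SE 0.30) on the log2 scale, and the GdX-deficient one by -0.08, which became 0.01 when its replicate 1 at 90 min was left out.

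Beside Aldh1a1 stand the red cell markers. Alas2, which encodes the first enzyme of haem synthesis in red cell precursors, was at 346 and 385 FPKM in wild type and 779 and 574 FPKM in GdX-deficient spleen at 90 min. Its 6 h levels were 131 and 180 FPKM in wild type against 320 FPKM. The genotypes did not overlap for Alas2 at either time. Alas2 in the GdX-deficient 6 h library lay below wild type at 90 min, whereas Aldh1a1 in that library lay above it. Of the 5 red cell markers, 3 were above wild type in both GdX-deficient libraries at 90 min and 1 was below. The summed list, which holds globin genes, did not follow Aldh1a1: it was 122399 and 92102 FPKM in wild type against 114998 and 80337 FPKM at 90 min. At 6 h it was 50119 and 33259 FPKM against 42524 FPKM. The part of red cell precursors in the Aldh1a1 levels was not tested.

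Aldh1a3 (Entrez gene 56847, chromosome 7, 66390890 to 66427517, minus strand) was the lowest of the dehydrogenases in all but 1 library, GdX-deficient replicate 1 at 90 min. It stood at 0.55 and 0.49 FPKM in wild type and 0.44 and 0.35 FPKM in GdX-deficient spleen at 90 min. At 6 h it was at 0.18 and 0.17 FPKM in wild type and 0.25 FPKM in the GdX-deficient library. These values rest on an estimated 12 to 37 fragments per library.

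Summed over Aldh1a1, Aldh1a2 and Aldh1a3, the dehydrogenase level was 19.70 and 19.73 FPKM in wild type and 32.5 and 28.6 FPKM in GdX-deficient spleen at 90 min. At 6 h it was 14.8 and 21.8 FPKM in wild type and 32.6 FPKM in the GdX-deficient library. Aldh1a2 gave 4.01% and 4.61% of it in wild type at 90 min and 52.4% and 45.7% at 6 h. In GdX-deficient spleen Aldh1a2 gave 1.29% and 1.78% at 90 min and 13.2% at 6 h.

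**Figure D2:**
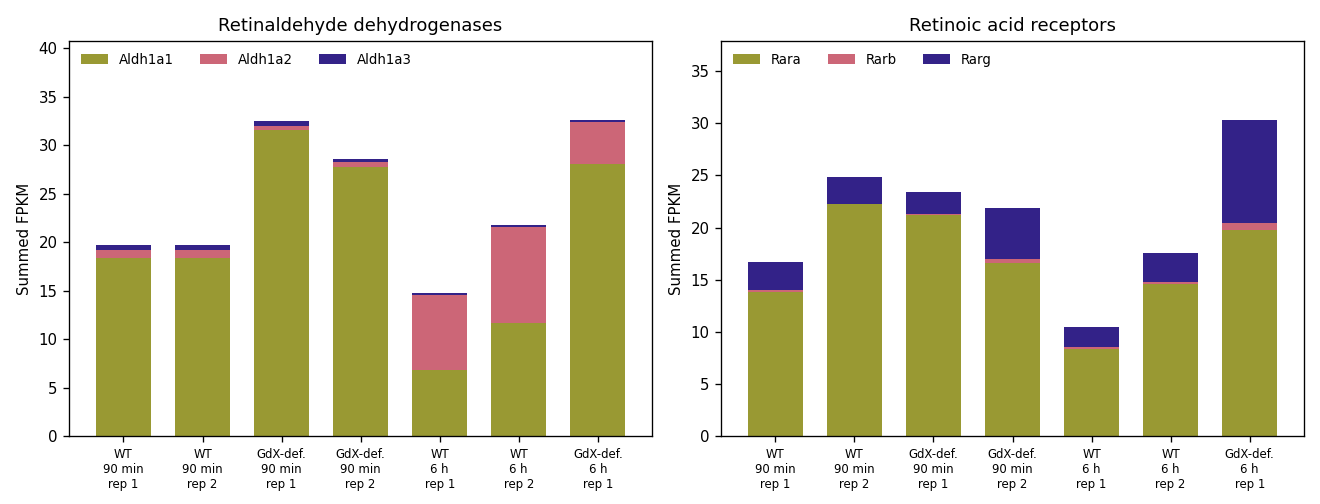
Summed FPKM of the retinaldehyde dehydrogenases (left) and the retinoic acid receptors (right) in each of the 7 libraries, stacked by gene. Aldh1a2 makes up 52.4% and 45.7% of the dehydrogenase sum in wild type at 6 h and 13.2% in the GdX-deficient library, and Rarg makes up 32.6% of the receptor sum in that library.

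Cyp26b1 (Entrez gene 232174, chromosome 6, 84571414 to 84593908, minus strand), the degrading enzyme, was low throughout. It stood at 0.21 and 0.23 FPKM in wild type and 0.14 and 0.18 FPKM in GdX-deficient spleen at 90 min. The 6 h levels were 0.43 and 0.39 FPKM in wild type and 0.77 FPKM in the GdX-deficient library. All 6 h libraries lay above all 90 min libraries. The 6 h mean was 1.86 times the 90 min mean in wild type and the 6 h library 4.81 times it in GdX-deficient spleen, on an estimated 11 to 62 fragments per library.

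Of the receptors, Rara (Entrez gene 19401, chromosome 11, 98927818 to 98974942, plus strand) was the most abundant in every library. It stood at 13.79 and 22.22 FPKM in wild type and 21.19 and 16.64 FPKM in GdX-deficient spleen at 90 min. The 6 h levels were 8.36 and 14.58 FPKM in wild type and 19.79 FPKM in the GdX-deficient library. Neighbouring groups in the order of levels all overlapped. The genotype difference at 90 min was 0.09 (SE 0.35) and turned to -0.23 without replicate 1 of wild type at 90 min. Rara was above both wild-type libraries in the GdX-deficient library at 6 h, by 0.78 on the log2 scale. That difference was 0.42 without wild-type replicate 1 at 6 h and 1.15 without replicate 2.

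Rarg (Entrez gene 19411, chromosome 15, 102234938 to 102257517, minus strand) set 2 libraries apart. At 90 min it stood at 2.71 and 2.58 FPKM in wild type and 2.05 and 4.91 FPKM in GdX-deficient spleen, the higher value in replicate 2. The 6 h levels were 1.93 and 2.72 FPKM in wild type and 9.88 FPKM in the GdX-deficient library. The log2 difference between genotypes was 0.22 (SE 0.35) at 90 min, with overlap, and -0.26 without GdX-deficient replicate 2. At 6 h the GdX-deficient library was 4.25 times the wild-type mean (1.72). Rarg in that library was also 1.36 above its 90 min mean on the log2 scale, and 0.88 without GdX-deficient replicate 1 at 90 min.

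The same 2 libraries had the highest levels of all 6 monocyte and neutrophil markers. The summed level of that list was 4162 FPKM in GdX-deficient replicate 2 at 90 min and 2453 FPKM at 6 h, against 632 to 1016 FPKM in the other 5 libraries. Csf3r, the receptor for the neutrophil growth factor G-CSF, was at 55.6 and 86.9 FPKM in these 2 libraries and at 10.0 to 23.1 FPKM in the others. S100a8, S100a9, Ly6g, Mmp9 and Ccr2, like the list sum, were higher in GdX-deficient replicate 2 at 90 min than at 6 h. Rarg, like Csf3r, was higher in the GdX-deficient 6 h library. The same 2 libraries also had the highest B cell sums, 1886 and 1640 FPKM against 363 to 1355 FPKM, with 3 of 5 B cell markers highest in both. The part of any of these cells in the Rarg levels was not tested.

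Rarb (Entrez gene 218772, chromosome 14, 16430839 to 16819156, minus strand), whose promoter holds the DR5 element shown above, stayed low. It was at 0.25 and 0.07 FPKM in wild type and 0.16 and 0.34 FPKM in GdX-deficient spleen at 90 min. The 6 h levels were 0.19 and 0.24 FPKM in wild type and 0.67 FPKM in the GdX-deficient library. The highest value rests on about 40 fragments and the lowest on about 4. All groups other than the single library overlapped. Cyp26a1, which holds the other DR5 element shown, was listed at no more than 0.21 FPKM in any library.

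**Figure D3:**
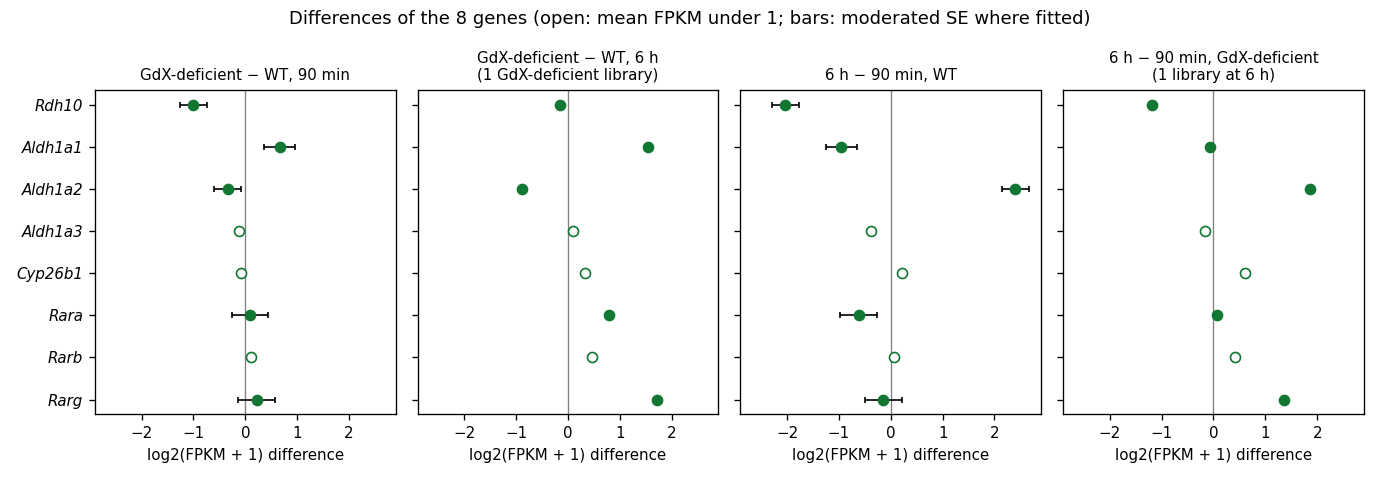
Differences of the 8 genes on the log2(FPKM + 1) scale between genotypes at each time and between times in each genotype. Filled points have a mean of at least 1 FPKM, and bars are moderated standard errors where 2 libraries stood on each side. Rdh10 (-2.03) and Aldh1a2 (2.40) lie farthest from 0 with time in wild type, and Rarg (1.72) and Aldh1a1 (1.54) in the genotype difference at 6 h.

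Counts over the 5 fitted members are given with the share of all 11378 genes that behaved alike, and nothing is read from them, since the members were listed with these contrasts known. In the test of genotype at 90 min with limma, 0 of 5 members passed, where 0.0176% of all genes passed (1 of 5 at an unadjusted p under 0.05, where 7.58% did). With time as covariate, 0 of 5 passed, where 0.0439% did (4 of 5 unadjusted, where 27.0% did). Rarg passed there under 1 of 12 alternatives, without GdX-deficient replicate 1 at 90 min, which called 1674 genes in place of 5. For time in wild type, 2 of 5 passed, Aldh1a2 upward and Rdh10 downward, where 10.7% did. Aldh1a1 passed downward with quantile normalization and with the replicate number as a block, which called 1370 and 2345 genes in place of 1218. Nothing is read from that either. Its log2 difference was -1.30 without wild-type replicate 2 at 6 h and -0.61 without replicate 1. In the descriptions with 1 library, a gene counted if it differed by at least 1 on the log2(FPKM + 1) scale (called 2-fold here) from the other group's mean and lay outside both libraries of that group. On that scale Aldh1a2 at 6 h fell short (-0.88), although its FPKM ratio was 2.05. No overlap between genotypes at 90 min was seen for 3 of 5 members (background 47.5%), and over time in wild type for 3 of 5 (57.9%). The single library lay outside the wild-type pair at 6 h for 5 of 5 (80.3%), and outside its own 90 min pair for 3 of 5 (72.6%). At 6 h, Aldh1a1 and Rarg were counted between genotypes (2 of 5, background 22.0%). For time in GdX-deficient spleen, Aldh1a2, Rdh10 and Rarg were counted (3 of 5, background 5.73%).

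The direction of the genotype difference was not shared by all members. With no overlap at either time and in the same direction, Aldh1a1 was higher and Rdh10 and Aldh1a2 were lower in GdX-deficient spleen (3 of 5, background 32.1%). The additive log2 differences were 1.01 (SE 0.26), -0.66 (SE 0.24) and -0.55 (SE 0.23). The median of all genes in that fit was 0.16, in the genotype difference at 6 h 0.32 and for time in GdX-deficient spleen 0.25, so small positive values there lie near the bulk of genes. Quantile normalization brought these medians to -0.01, -0.02 and 0.02, and left the signs of those 3 additive differences as they were. Without the single GdX-deficient 6 h library the 3 differences were 0.66, -1.0 and -0.34. The genotype comparison at 90 min and the time comparison in wild type share the wild-type libraries at 90 min, and the comparison at 6 h shares the wild-type 6 h libraries with the latter. Across the 7 libraries, Pearson's r was -0.80 between Rdh10 and Aldh1a2 and 0.83 between Aldh1a1 and Rara, as descriptions over libraries that differ in time, genotype and cell make-up.

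The other genes of the pathway were taken from a list by role that held 56 genes, of which 53 were in the table and 31 had a mean of at least 1 FPKM. For time in wild type, 1 of these 31 passed upward, where 4.39% of all genes did, and 0 passed downward, where 6.32% did (7 of 31 at an unadjusted p under 0.05, against 28.7% of all genes). It was Hic1 (Entrez gene 15248), a transcription repressor listed as a retinoic acid responsive gene. Hic1 rose from 0.25 and 0.67 FPKM to 2.59 and 3.65 FPKM in wild type, a log2 difference of 1.5 (SE 0.26, limma adjusted p = 0.0104). It was at 0.48 and 0.45 FPKM in GdX-deficient spleen at 90 min and 3.04 FPKM at 6 h, a log2 difference of 1.46. Without replicate 1 of wild type at 90 min its call was lost (limma adjusted p = 0.0660), and over the alternatives the adjusted p ranged from 0.00119 to 0.0660. The genotypes overlapped for Hic1 at both times.

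None of the 31 passed in either test of genotype with limma (4 at an unadjusted p under 0.05 at 90 min, where 7.58% of all genes were, and 6 with time as covariate, where 27.0% were). The median log2 difference of the list was 0.02 at 90 min, against 0.07 over all genes, and -0.08 for time in wild type, against 0.05. At 6 h, 7 of 31 were at least 2-fold higher in the GdX-deficient library and 0 were lower, with a background of 16.5% for higher and 5.47% for lower. Over all genes that split was 1879 higher and 622 lower, and 951 and 881 after quantile normalization. They included Asb2, a ubiquitin ligase subunit induced by retinoic acid in myeloid cells, at 37.5 FPKM against 2.82 and 4.82 FPKM. They also included Rxra, a retinoid X receptor, at 13.2 FPKM against 2.45 and 3.7 FPKM, and Rdh12, a retinaldehyde reductase, at 9.04 FPKM against 1.63 and 2.88 FPKM. At 90 min Rdh12 was at 26.6 FPKM in GdX-deficient replicate 2, the library with the highest neutrophil markers, and at 4.9 to 5.75 FPKM in the other 3. Lipoprotein lipase, Lpl, and the coactivators Ncoa1 and Ncoa3 were also among them.

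For time in GdX-deficient spleen, 5 of 31 were at least 2-fold higher at 6 h and 0 lower, with a background of 4.09% for higher and 1.64% for lower. Over all genes 465 were higher and 187 lower, and 262 and 325 after quantile normalization. The 5 genes of the list included Asb2, Hic1 and those for the proteins of retinoid uptake and binding Stra6 and Fabp5. Stra6, the cell-surface receptor for retinol-binding protein, was at 2.72 and 0.45 FPKM at 90 min and 11.99 FPKM at 6 h in GdX-deficient spleen, and at 1.99 and 3.97 FPKM and then 5.13 and 8.79 FPKM in wild type. Asb2 was at 4.29 and 9.30 FPKM and then 37.5 FPKM in GdX-deficient spleen, and had no such difference in wild type (4.55 and 4.77 FPKM, then 2.82 and 4.82 FPKM). The libraries with 9.30 and 37.5 FPKM were those with the highest monocyte and neutrophil markers. The part of these cells in the Asb2 levels was not tested. Whether the change with time differs between genotypes was not tested, since it would rest on 1 library.

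By role, the most abundant genes other than the members were as follows. Fabp5, a fatty acid binding protein that can carry retinoic acid to the nucleus, ranged from 30.9 to 128 FPKM. Adh5 ranged from 37.3 to 70.9 FPKM, Rxrb, the most abundant retinoid X receptor, from 21.9 to 35.6 FPKM, and Tgm2, the transglutaminase induced by retinoic acid, from 35.6 to 104 FPKM. Dgat1, which can esterify retinol, ranged from 12.4 to 27.1 FPKM, and the corepressor Ncor1 from 18.4 to 30.9 FPKM. The carotenoid cleaving enzyme Bco2 ranged from 1.96 to 4.28 FPKM. Aldh1a7 ranged from 0.17 to 0.93 FPKM.

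**Figure D4:**
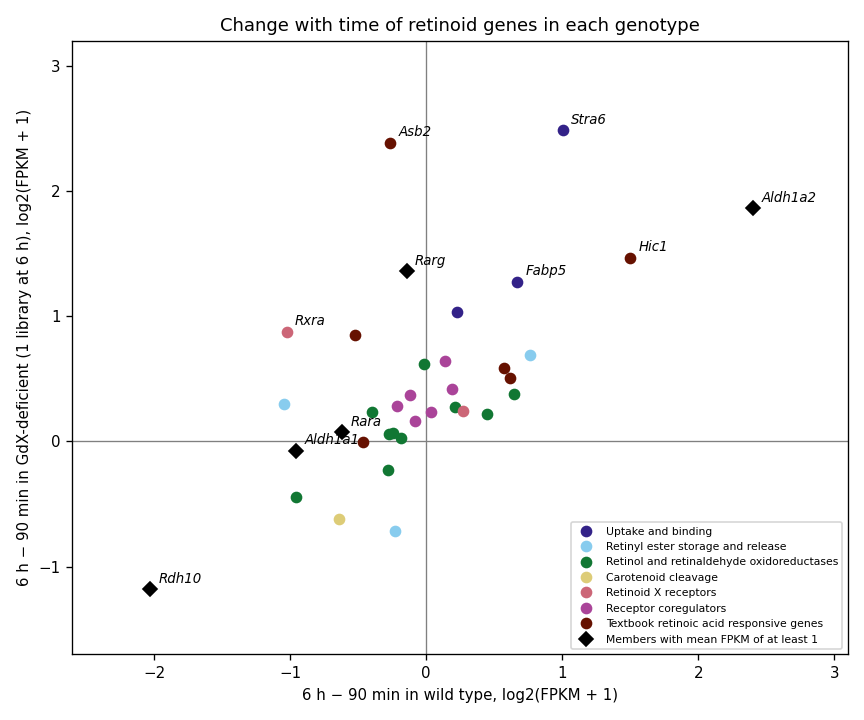
Difference between 6 h and 90 min in wild type (horizontal axis) and GdX-deficient spleen (vertical axis, 1 library at 6 h), on the log2(FPKM + 1) scale, for the 31 other retinoid genes by role (circles) and the 5 members with a mean of at least 1 FPKM (diamonds). The named circles were chosen after their values were seen. Aldh1a2 (2.40 and 1.86) and Hic1 (1.5 and 1.46) lie to the upper right and Rdh10 (-2.03 and -1.18) to the lower left.

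The genes most like each fitted member were found by Pearson's r over the 7 libraries on the log2 scale, as a description. For Aldh1a2 they were Cenpb (0.999), Snapc2 (0.994) and Mtfr1l (0.994). For Rdh10 they were Phlda1 (0.987), Prr7 (0.986) and Tfpi2 (0.985). For Aldh1a1 they were Fbxo9 (0.990), Ackr1 (0.989) and Rap1gap (0.987). For Rara they were Elk1 (0.992), Cnnm4 (0.991) and Arhgap31 (0.991). For Rarg they were Hist2h3c2 (0.998), Eno3 (0.997) and Stra6l (0.988), the last a relative of the retinol-binding protein receptor by name. All 7 points share the time and genotype groups, and the genes were picked from 11378.

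**Figure D5:**
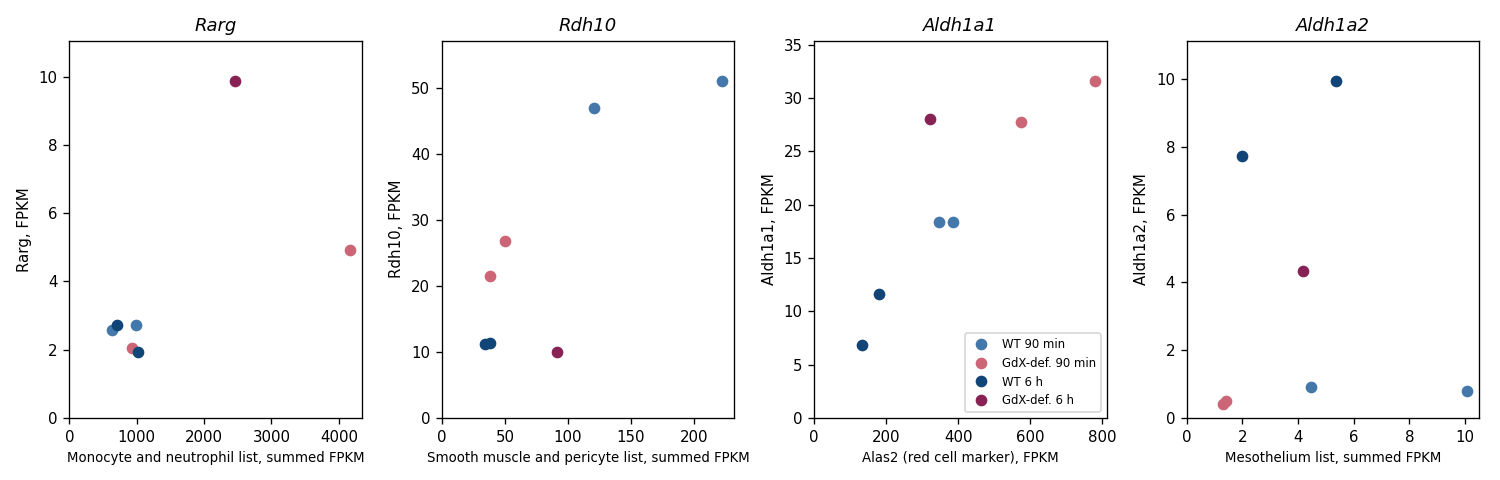
FPKM of 4 members (vertical axes) against a marker level (horizontal axes) in the 7 libraries, coloured by group: Rarg and the summed monocyte and neutrophil list, Rdh10 and the summed smooth muscle and pericyte list, Aldh1a1 and Alas2, Aldh1a2 and the summed mesothelium list. Alas2 was picked from the red cell list after its values were seen, and the summed red cell list did not follow Aldh1a1. Rarg is highest in the 2 libraries with list sums of 2453 and 4162 FPKM, and is higher at 2453 FPKM than at 4162 FPKM. Aldh1a2 is highest in the wild-type 6 h libraries, whose mesothelium sums are 1.98 and 5.36 FPKM.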

How the data were processed

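Spleen RNA from 7 mice was sequenced on a BGISEQ-500 instrument after poly(A) selection or rRNA depletion, per the labels' protocols, which do not say which of them was used. Per the file headers, the deposited table gives FPKM per gene for each library. The submitters' processing notes list HISAT, HISAT2 2.0.4, Bowtie2 and RSEM and the build GRCm38.p5, with no role or order. Filters are not given in the sources used here.

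From these values log2(FPKM + 1) was computed, and the 11378 genes with a mean of at least 1 FPKM were fitted with limma 3.58.1 in R 4.3.3 (empirical Bayes with a trend, two-sided, Benjamini-Hochberg over all fitted genes, threshold 0.05). Genotype at 90 min and time in wild type came from a fit of the 4 groups, and genotype with time as covariate from an additive fit of 3 against 4 libraries. The single GdX-deficient 6 h library was described without a test. Depth was estimated from 5014 genes with 1 transcript of known length (GENCODE M21). The fits were tested on simulated data. Alternatives were a pseudocount of 0.1, no filter or a mean of at least 5 FPKM, quantile normalization, rescaling without haemoglobin genes, the replicate number as a block, the 4 compared libraries alone, and each library left out.

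The members, the lists and the rules for naming were chosen with earlier results of these data known. The text names the 8 members, each listed retinoid gene that passed a test, the most abundant of each role, and the 3 genes most like each fitted member. Marker genes named singly, genes past 2-fold in 1 library and the motifs were named after their values were seen. Promoters are from RefSeq and gene positions from GENCODE M21, both GRCm38. Coding sequences were aligned with Biopython 1.88. A few listed genes are counted but not reported by name here.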

Additional observations from a re-analysis of the deposited data

Results flagged for a closer look

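Among the members and the other listed retinoid genes, some crossed: every GdX-deficient library lay on one side of wild type at 90 min and on the other at 6 h, or time went opposite ways in the genotypes, with no overlap. The differences between these effects were not tested. Shares of all genes below cover fitted genes only, and most of the genes listed as crossing were not fitted. Of all 11378 fitted genes, 7.79% crossed between genotypes (6.82% lower at 90 min and higher at 6 h, 0.967% the reverse) and 9.14% over time (8.31% lower in wild type and higher in GdX-deficient spleen, 0.835% the reverse). All crossings listed here run in the common direction, and the medians of all genes were 0.32 for genotype at 6 h and 0.25 for time in GdX-deficient spleen, so values near those do not stand apart. Values are on the log2(FPKM + 1) scale.

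Between genotypes, at 90 min and then 6 h, Aldh1a3 differed by -0.12 and 0.089 and Cyp26b1 by -0.073 and 0.33. Adh1, an alcohol dehydrogenase, differed by -0.33 and 0.42, and Aldh1a7 by -0.16 and 0.69. The short-chain reductase Dhrs4 differed by -0.14 and 0.19. Lpl differed by -0.26 and 1.09, and Lrat, which esterifies retinol, by -0.19 and 0.83. Of the 5 members and 31 other genes with a mean of at least 1 FPKM, Lpl and Dhrs4 alone crossed between genotypes.

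Over time, in wild type and then GdX-deficient spleen, Adh1 differed by -0.52 and 0.23, Aldh1a7 by -0.68 and 0.17 and Lrat by -0.45 and 0.57. Lpl differed by -1.05 and 0.30. The retinol dehydrogenase Rdh5 differed by -0.40 and 0.24. Rxra, at 6.30 and 8.19 FPKM and then 2.45 and 3.7 FPKM in wild type, differed by -1.02 and 0.88. Rxrg differed by -0.068 and 0.27. Of the members and other genes with a mean of at least 1 FPKM, Lpl, Rdh5 and Rxra alone crossed over time. All values at 6 h in GdX-deficient spleen rest on 1 library.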

How the results depend on the processing

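Of 350 values of members and of Hic1 under the alternatives, 305 moved by less than 1 SD of the replicates (or, for Hic1, kept its call), 44 moved by more, and Hic1 lost its call in 1. That SD is wide with 2 libraries a group: 10 values changed sign, 9 of them within it, all for differences that had not been called. A part of the 305 could not move, since another filter leaves the log2 difference of a fitted gene as it was. For genotype at 90 min and time in wild type, so do the 4-library fit, the replicate block and leaving out an uncompared library. Rdh10 with time in wild type stayed at -2.03 under each of these, so the 305 overstate how stable the values are. Rara between genotypes at 90 min ranged from -0.23 to 0.42 and Rarg from -0.26 to 0.70. Rarg over time in GdX-deficient spleen was under a difference of 1 on the log2(FPKM + 1) scale without replicate 1 at 90 min (0.88). The log2 difference with time in wild type ranged from 2.24 to 3.23 for Aldh1a2, from -2.13 to -1.97 for Rdh10 and from -1.30 to -0.61 for Aldh1a1. Between genotypes at 6 h it ranged from -1.35 to -0.64 for Aldh1a2 and from 0.42 to 1.15 for Rara, so both lay on either side of the size of 1 used for counting. Rarg with time as covariate ranged from 0.22 to 1.21. With a mean of at least 5 FPKM, Aldh1a2, Rarg and Hic1 were not fitted.

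The number of genes called for genotype at 90 min was 2, 181 in a fit of the 4 libraries alone, and 2 to 183 with a library left out. With time as covariate it was 5, and 2 to 1674 with a library left out, the highest when GdX-deficient replicate 1 at 90 min was left out. For time in wild type it was 1218, 635 without a filter, 708 rescaled without haemoglobin genes (191 higher and 517 lower against 499 and 719), and 450 to 1774 with a library left out. At 6 h between genotypes 2501 genes were past 2-fold, and 1887 to 3830 without a wild-type library; the split of 1879 higher and 622 lower became 951 and 881 after quantile normalization and 2857 and 352 rescaled without haemoglobin genes. For time in GdX-deficient spleen it was 652, 421 with a mean of at least 5 FPKM, 1033 with a pseudocount of 0.1, and 585 to 1336 without a 90 min library; 465 higher and 187 lower became 262 and 325 after quantile normalization. The causes were not tested.

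The titles give replicate numbers 1 and 2, and nothing says that they pair mice. With the replicate number as a block, 2 genes were called for genotype at 90 min, 12 with time as covariate and 2345 for time in wild type. Aldh1a1 was among the last of these, though not in the fit without the block. Deviations from the group means of same-numbered libraries correlated across genes at -0.12 between genotypes at 90 min and 0.77 between the wild-type times. Depth limits Aldh1a3, Cyp26b1 and Rarb, with at most 62 estimated fragments in any library.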
